A study of Mus musculus with 31 samples.

Results

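Hematopoietic stem cells (HSC) of mice injected with PBS were compared between 4 libraries taken 14 days after 150 mg/kg of 5-fluorouracil (5-FU) and 4 libraries taken at day 28 from mice without 5-FU. These 8 libraries were chosen by their labels, out of 31 RNA-seq libraries in 8 groups. The mice were C57BL/6 wild type, 10 weeks old, and the cells were sorted from bone marrow and labelled as long-term HSC. The 5-FU mice received PBS into the peritoneum and 5-FU 7 days later. The day 28 mice received PBS alone. Beside them stand HSC of PBS mice at day 7 without 5-FU (4 libraries), and HSC of mice given 1 mg of the polysaccharide β-glucan with the same 5-FU schedule (4 libraries) or at day 28 without 5-FU (4 libraries).

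The 5-FU libraries and the day 28 libraries were counted in different tables and taken at different times after PBS. The drug, the table and the interval since PBS therefore cannot be told apart in any difference given here. The table columns named neither the day nor 5-FU, so the table that also held multipotent progenitors was taken as day 28. The table whose numbers of PBS and β-glucan libraries matched the day 7 labels was taken as day 7. The table left over was taken as 5-FU, so the 5-FU label of these libraries is inferred. The initials P and G were read as PBS and β-glucan. Whether replicates were separate mice is not stated, so the spread behind each p-value may be technical. Weight is given to large differences that every library showed and that many genes of a kind shared. Lists can share members, as the lymphoid and dendritic lists share Ccr9, so their counts are not independent of each other. Calls rest on edgeR's quasi-likelihood test, with p-values adjusted after Benjamini and Hochberg over all genes tested and a limit of 0.05. A called gene counted as a large difference when it also differed at least 2-fold and every library of one group stood above every library of the other. Levels are CPM, counts scaled to a common library total with TMM factors. A signed value behind a gene's name is its log2 fold change, 5-FU over day 28, ± standard error.

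Long-term HSC are rare, mostly resting cells that renew themselves and give rise to all blood lineages through progenitors that lose one fate after another. 5-FU is a pyrimidine analogue whose active forms block thymidylate synthase and enter RNA and DNA. It is used in mice because it kills dividing progenitors while resting HSC survive, and the marrow then refills from the surviving cells.

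The libraries held 25044256 to 30402713 counts after 5-FU and 29751430 to 39485556 at day 28, with 22611 to 23713 genes detected over the 8. Although the cells were labelled as HSC, transcripts of mature blood cells took a far larger share of every library than HSC markers did. The 4 adult globin genes held 12.2 to 15.9% of counts after 5-FU and 17.1 to 18.2% at day 28. Late neutrophil genes held 15.6 to 20.9% after 5-FU and 7.64 to 8.44% at day 28, without overlap. HSC markers held 0.24 to 0.293% after 5-FU and 0.157 to 0.246% at day 28. At day 7 the globin genes held 5.39 to 6.81%, late neutrophil genes 6.12 to 6.96% and HSC markers 0.592 to 0.66%. In such bulk libraries, fewer cells of a type and less RNA per cell cannot be told apart, and the part of these shares in the results below was not tested.

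Calls numbered 7777 among 15973 genes (48.7%), with 3651 higher (22.9%) and 4126 lower (25.8%) after 5-FU. Large differences numbered 2345 (14.7%), of which 971 were higher (6.08%) and 1374 lower (8.60%). With upper quartile scaling, which moved the median of all genes to 0.12, 59% of calls were higher, beside 46.9% here, and the large differences were 1284 higher and 1106 lower, so that the excess of lower ones turned. Sets without 5-FU from different tables differed more widely, with 20.7% large. Between day 28 and day 7, 1743 of 16324 genes (10.7%) were large and higher at day 28 and 1643 (10.1%) large and lower. Large differences that also lay beyond all 8 libraries of PBS mice without 5-FU, those of day 7 included, numbered 628 higher (3.93%) and 1000 lower (6.26%). Against these shares, lymphoid, erythroid, dendritic and MHC class II genes, genes of DNA replication and iron handling were lower after 5-FU in numbers well over those of all genes. Late neutrophil and ribosomal protein genes were higher in such numbers. With day 7 in place of day 28, more genes were called, 10255 of 16177, with 5163 higher and 5092 lower after 5-FU. Of these, 2571 were large and higher and 1909 large and lower. List counts against day 7 below are to be read beside these.

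**Figure D1:**
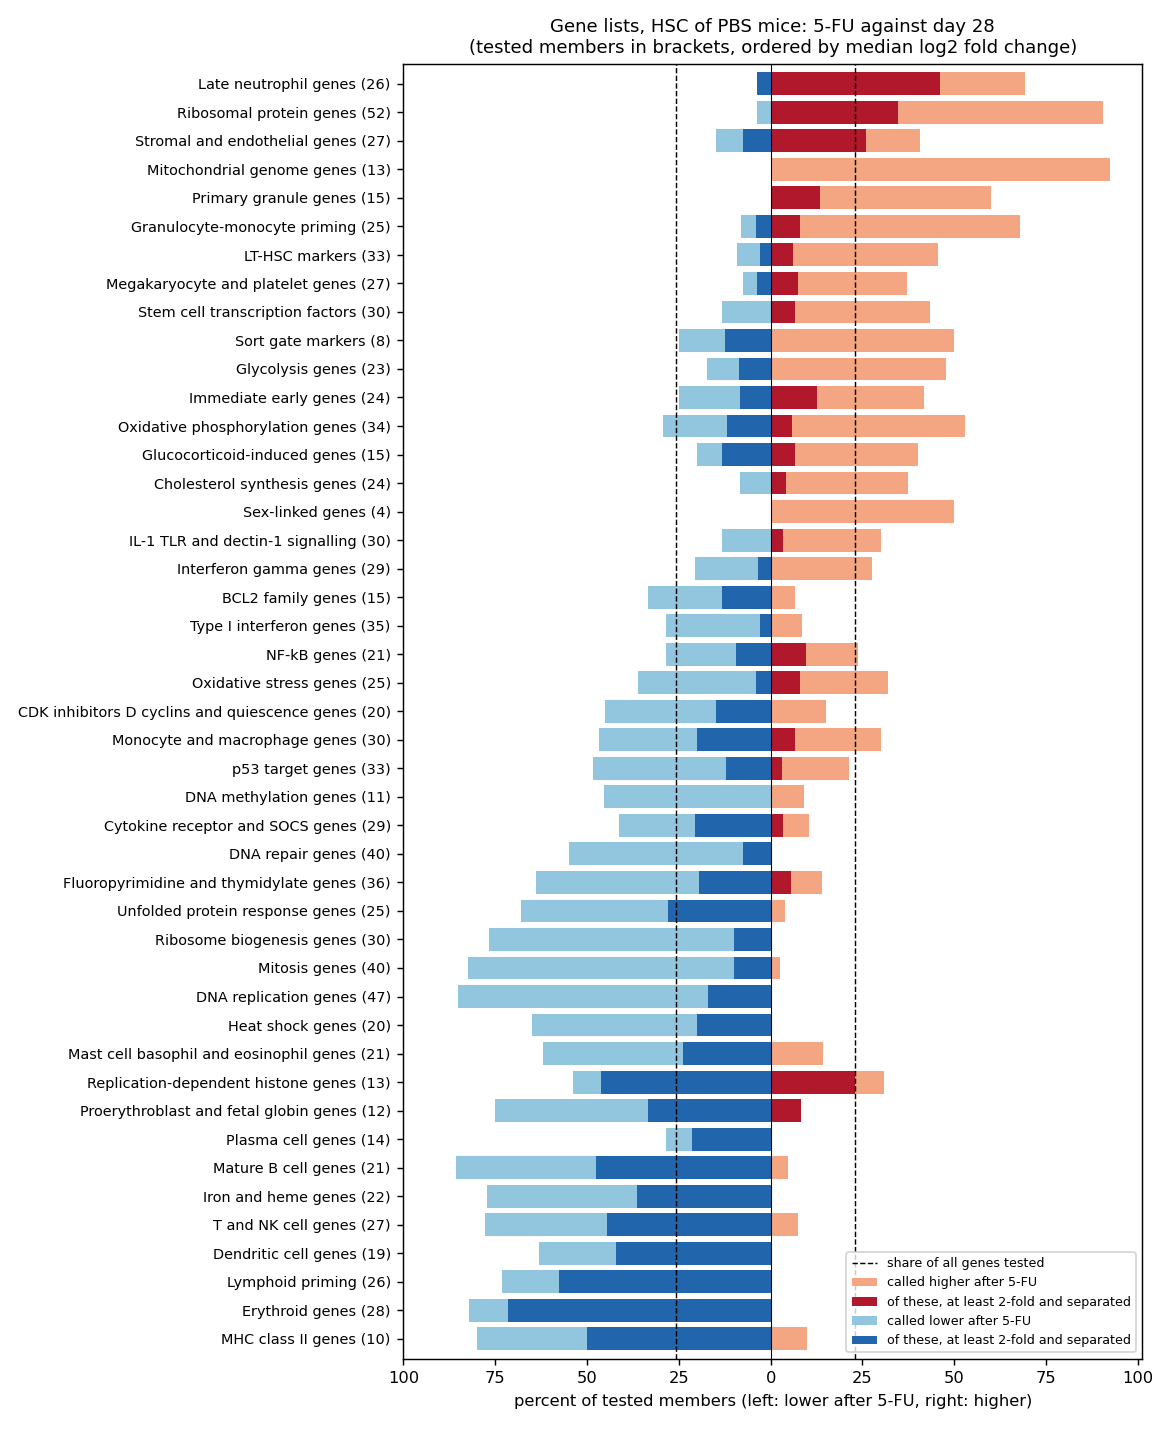
Gene lists in HSC of PBS mice, 5-FU against day 28. Bars show the percent of each list's tested members called higher (right, red) or lower (left, blue) after 5-FU, with large, separated differences in the darker shade, and dashed lines show the shares over all genes (22.9% higher, 25.8% lower). Lists are ordered by median log2 fold change; late neutrophil and ribosomal protein genes lie at the higher end, and erythroid, lymphoid and MHC class II genes at the lower end.

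Lymphoid priming genes, which early progenitors switch on as they enter the B and T cell paths, were lower after 5-FU as a group. Of 26 tested, 19 fell, 15 of them as large differences and 14 beyond all 8 libraries without 5-FU, and 0 rose (all genes: 25.8% lower, 8.60% large and lower). The median was -1.06, beside -0.00854 over all genes. The genes of the surrogate light chain, which pairs with the first rearranged heavy chain in precursor B cells, changed most. Igll1 (chromosome 16, 16860671 to 16863985 in mm10) stood at 0.861, 1.19, 0.662 and 1.79 CPM after 5-FU, against 25.2, 27.9, 23.9 and 21.7 CPM at day 28. The groups lay far apart, with a log2 fold change of -4.47 ± 0.23 (edgeR's quasi-likelihood test, adjusted p = 3.1e-08). Its partner Vpreb1 had 0.665, 0.802, 0.935 and 0.223 CPM after 5-FU and 10.6, 11.1, 10.3 and 10.9 CPM at day 28 (-4.00 ± 0.27). The copy Vpreb2 (-3.37 ± 0.50) shares 32.8% of its transcript with another gene, so its reads and those of Vpreb1 could be exchanged. At day 7 Igll1 stood at 51.2 to 57.9 CPM and Vpreb1 at 13.1 to 16 CPM, farther from the 5-FU level than day 28 in both genes.

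The other lymphoid genes that fell spanned enzymes, receptors and factors. Dntt, the polymerase that adds untemplated bases at antigen receptor joins, was at 8.42, 10.6, 7.29 and 10.2 CPM after 5-FU and 53.2, 56.3, 60.4 and 59.3 CPM at day 28 (-2.65 ± 0.12). The cytokine receptor Flt3, which marks progenitors that have left the stem cell state, had 5.87, 4.01, 3.04 and 4.33 CPM after 5-FU against 12.9, 16.1, 16.5 and 13.9 CPM at day 28 (-1.79 ± 0.19), and 85.5 to 150 CPM at day 7. No library overlapped in either gene. The receptor of IL-7, Il7r (-1.73), the chemokine receptor Ccr9 (-1.997) and the B cell factors Ebf1 (-1.62), Tcf3 (-1.22) and Pax5 (-1.10) fell as well. Rag2 (-1.18) fell while its partner in V(D)J recombination, Rag1 (0.11), was not called, nor were Notch1 (-0.26), Satb1 (-0.25) and Mef2c (0.26). The summed level of the 26 genes was 1896 to 2138 CPM after 5-FU and 2287 to 2920 CPM at day 28. Against day 7 in place of day 28, 17 of the 26 were called lower and 1 higher, with a median of -1.11.

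Promoter sequences of the pair Igll1 and Vpreb1 are shown because they are neighbours on chromosome 16 and fell together. They are 300 bases around the RefSeq start (GRCm38.p6), 5′ to 3′ on the gene's strand, from chr16:16863936-16864235 and chr16:16869206-16869505, both on the minus strand. Capitals mark a match to CAGCTG, an E-box read the same on both strands, which E2A proteins (from Tcf3) are known to bind. The Igll1 window held 1 match and the Vpreb1 window 0. Other E-box sequences were not searched for, so 0 matches does not mean a window without an E-box.
Igll1: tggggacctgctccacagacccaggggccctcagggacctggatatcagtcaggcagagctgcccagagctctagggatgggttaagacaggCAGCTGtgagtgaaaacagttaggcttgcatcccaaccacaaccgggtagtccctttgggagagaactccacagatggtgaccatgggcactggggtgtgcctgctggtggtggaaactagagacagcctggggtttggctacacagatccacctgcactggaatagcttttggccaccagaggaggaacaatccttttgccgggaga
Vpreb1: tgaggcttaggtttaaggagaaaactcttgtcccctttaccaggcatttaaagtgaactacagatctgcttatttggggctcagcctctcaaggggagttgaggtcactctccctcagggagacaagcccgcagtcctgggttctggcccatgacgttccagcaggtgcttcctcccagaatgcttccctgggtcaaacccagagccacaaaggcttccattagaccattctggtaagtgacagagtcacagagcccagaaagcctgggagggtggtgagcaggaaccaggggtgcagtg
The motif was present in 4 of 32 windows of lymphoid genes (12.5%), 5 of 22 windows of erythroid genes (22.7%) and 5355 of 32851 windows in all (16.3%).

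Erythroid genes were lower after 5-FU apart from the adult globins. Of 28 tested, 23 fell, 20 as large differences, and 0 rose, with a median of -1.16. The 5 that were not called were the globin genes Hbb-bt (-0.19), Hbb-bs (-0.10), Hba-a2 (-0.13) and Hba-a1 (-0.15), whose near-identical copies can exchange reads, and the mitophagy receptor Bnip3l (0.16). Klf1, the factor that switches on most red cell genes (chromosome 8, 84901928 to 84905295 in mm10), had 6.89, 6.20, 5.30 and 3.75 CPM after 5-FU, against 68.2, 60.6, 53.4 and 43.2 CPM at day 28 (-3.34 ± 0.19, adjusted p = 6.7e-08 by edgeR's quasi-likelihood test). Epor, the erythropoietin receptor (chromosome 9, 21958899 to 21963576), had 4.23, 5.19, 5.34 and 3.35 CPM after 5-FU and 29.7, 30.2, 26.8 and 30.9 CPM at day 28 (-2.69 ± 0.15). The groups were separate in both genes. The 24 erythroid genes other than the globins summed to 6772 to 9138 CPM after 5-FU and 15420 to 24570 CPM at day 28.

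Red cell membrane and skeleton genes moved in the same direction as Klf1. Slc4a1, the anion exchanger band 3, had 403, 422, 364 and 308 CPM after 5-FU and 1231, 1919, 1337 and 1212 CPM at day 28 (-1.93 ± 0.16). The spectrin gene Sptb (-2.27), the water channel Aqp1 (-2.31), ankyrin Ank1 (-1.67) and the carbonic anhydrase Car1 (-2.12) fell too. The lineage factor Gata1 stood at 75.3, 75.4, 58.2 and 57.9 CPM after 5-FU and 128, 166, 126 and 134 CPM at day 28 (-1.05 ± 0.12), with day 7 at 69.1 to 91.5 CPM, which overlapped the 5-FU libraries. Against day 7, 16 of the 28 erythroid genes were called lower, 5 as large differences, and 5 were called higher. Over all genes, 5092 of 16177 were called lower there, 1909 as large differences, and 5163 higher. Klf1 (-2.18) and Epor (-1.41) were lower than at day 7 as well, where they stood at 19.6 to 32.2 and 9.15 to 17.3 CPM.

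A gene of the embryonic globin locus went the other way. Hbb-y, an embryonic β-like globin of the mouse (chromosome 7, 103851745 to 103853240 in mm10), had 7.32, 5.96, 6.47 and 6.47 CPM after 5-FU against 0.25, 0.61, 0.199 and 0.275 CPM at day 28. The difference was 4.28 ± 0.29 (edgeR's quasi-likelihood test, adjusted p = 3.02e-07), with no overlap, and day 7 lay between at 0.933 to 1.75 CPM. The embryonic gene Hbb-bh1 (-0.94) was lower, and Hba-x (-0.27) was not called. In β-glucan mice Hbb-y differed by 4.24. Of the 12 genes of the list of proerythroblast factors and embryonic globins, Hbb-y was the only one that rose and 9 fell, among them Add2 (-2.04) and Tmod1 (-1.68) of the membrane skeleton and the factor Nfe2 (-0.85).

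The promoters of Klf1 (chr8:84901732-84902031, plus strand) and Epor (chr9:21963527-21963826, minus strand) are shown as those of the erythroid factor and receptor that fell most. Capitals mark a match to GATAAG, the core bound by GATA factors, which on the printed strand reads CTTATC in both windows (RefSeq, GRCm38.p6, 300 bases each, 5′ to 3′ on the gene's strand).
Klf1: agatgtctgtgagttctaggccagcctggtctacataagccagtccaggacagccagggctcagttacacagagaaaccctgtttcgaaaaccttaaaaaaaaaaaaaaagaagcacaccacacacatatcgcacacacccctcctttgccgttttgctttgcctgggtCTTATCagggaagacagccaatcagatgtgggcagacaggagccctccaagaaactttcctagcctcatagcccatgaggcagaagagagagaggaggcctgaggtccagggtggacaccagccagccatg
Epor: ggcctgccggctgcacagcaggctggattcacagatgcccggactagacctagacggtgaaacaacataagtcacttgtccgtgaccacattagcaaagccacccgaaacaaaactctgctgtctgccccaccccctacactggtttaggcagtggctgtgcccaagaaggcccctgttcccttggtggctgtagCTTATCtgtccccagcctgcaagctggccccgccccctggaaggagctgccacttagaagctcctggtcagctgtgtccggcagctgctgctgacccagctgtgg
On either strand, GATAAG occurred in 10 of 22 windows of erythroid genes (45.5%), 2 of 32 windows of lymphoid genes (6.25%) and 2445 of 32851 windows in all (7.44%). A match of these letters is a description of the window and not a measured binding site.

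Genes of iron and heme handling overlapped the erythroid list in part. Of 22 tested, 17 fell, 8 as large differences, and 0 rose (median -0.93). Against day 7, 12 were called lower, 1 as a large difference, and 7 higher, 3 as large differences (median -0.41). Fth1, the heavy chain of the iron store ferritin (chromosome 19, 9982703 to 9985092 in mm10), had 147, 245, 266 and 223 CPM after 5-FU, against 2738, 3181, 2609 and 2643 CPM at day 28 and 2009 to 2217 CPM at day 7 (-3.66 ± 0.17). The light chain gene Ftl1 was not called (-0.02). In β-glucan mice after 5-FU, Fth1 had 294, 156, 251 and 1400 CPM, so that replicate 4 stood apart from the other libraries of its group. The ferrireductase Steap3 (-1.58), the iron transporter Slc11a2 (-1.33) and the heme synthesis enzymes Alad (-1.11), Uros (-1.33), Alas2 (-1.13) and Fech (-1.14) were large and lower. Alas1 (0.27), the form of the first enzyme used outside red cells, was not called.

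**Figure D2:**
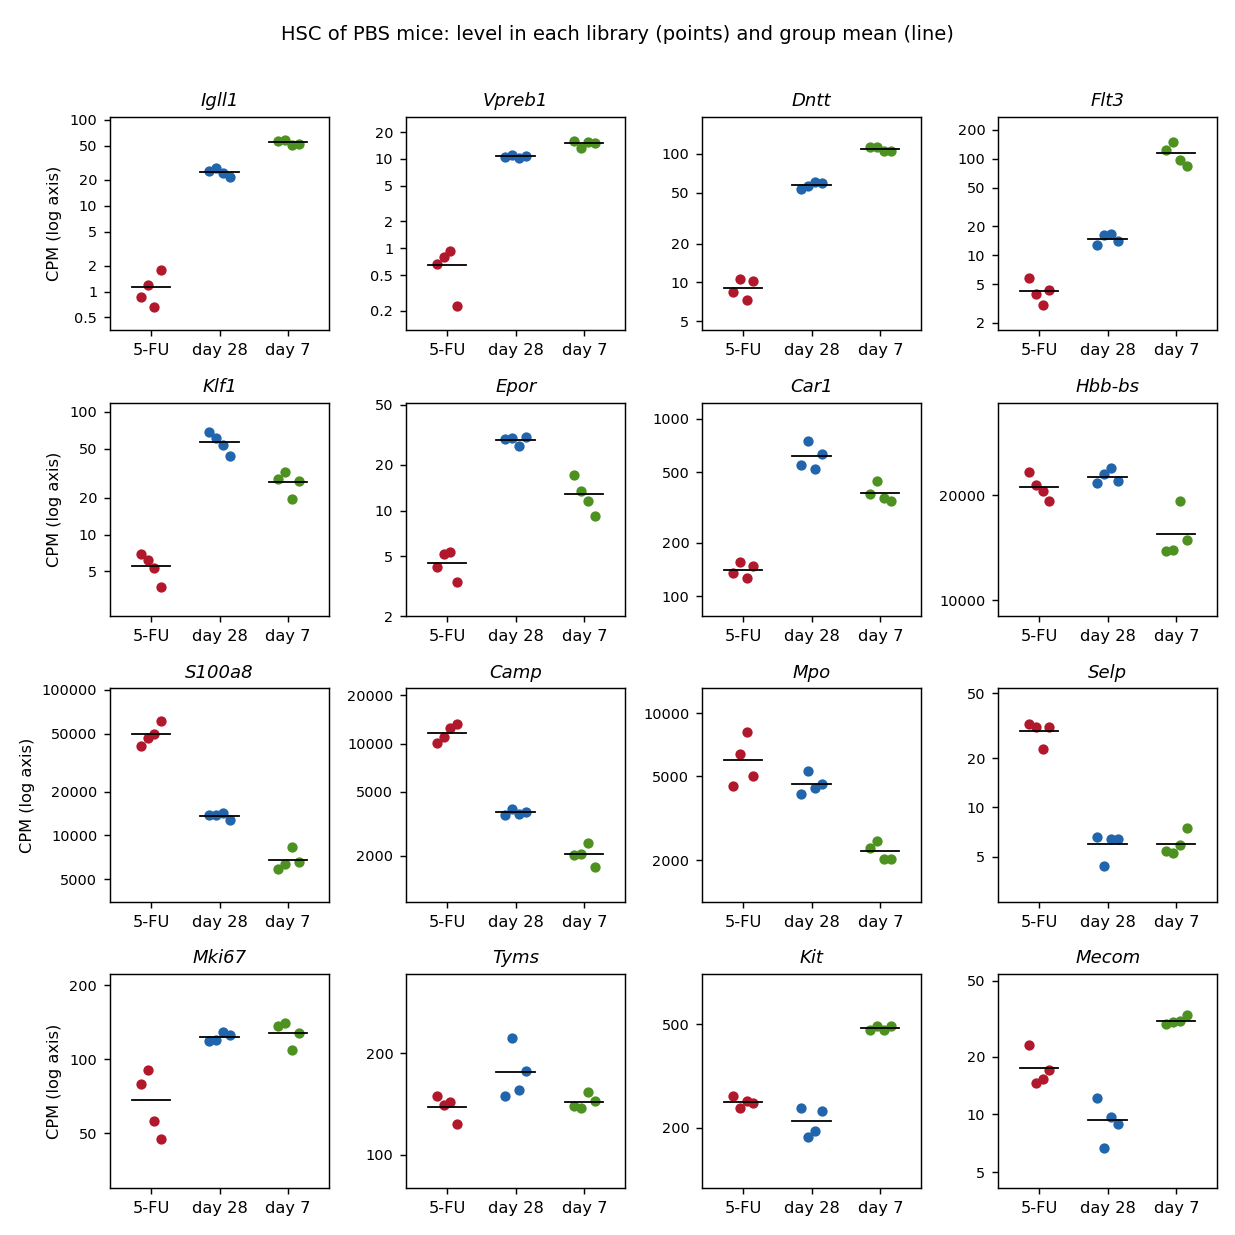
Level of single genes in every library of HSC of PBS mice, after 5-FU (left), at day 28 (middle) and at day 7 (right), in CPM on a log axis. Points are libraries and lines are group means. For Igll1, Vpreb1, Dntt, Flt3, Klf1, Epor and Car1 the 5-FU libraries lie below every library without 5-FU, and for Camp, S100a8 and Selp above them. Hbb-bs and Mpo overlap between 5-FU and day 28, and Tyms between 5-FU and day 7.

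Late neutrophil genes, which encode secondary and tertiary granule proteins and alarmins of maturing neutrophils, were higher after 5-FU. Of 26 tested, 18 rose, 12 as large differences, all 12 beyond the 8 libraries without 5-FU, and 1 fell (all genes: 22.9% higher, 6.08% large and higher). Camp, the antimicrobial peptide cathelicidin, had 10020, 11020, 12470 and 13280 CPM after 5-FU and 3585, 3907, 3640 and 3740 CPM at day 28 (1.65 ± 0.12). S100a8, a subunit of the alarmin calprotectin, had 41120, 46670, 50060 and 60750 CPM after 5-FU against 13780, 13710, 14160 and 12710 CPM at day 28 (1.87 ± 0.15). Both groups were compact and separate, and day 7 was lower again (1704 to 2388 CPM for Camp). Wfdc21 (1.97), S100a9 (1.63), Pglyrp1 (1.44), Ly6g (1.44), Ngp (1.21) and Lcn2 (1.08) rose with them. The receptors of mature neutrophils Cxcr2 (0.42), Csf3r (0.07) and Il1r2 (0.36), and Mmp9 (0.33), were not called.

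The gene that fell in this list was Lrg1, a secreted glycoprotein of neutrophil granules. It had 29.4, 32.9, 28.3 and 36.2 CPM after 5-FU and 217, 176, 180 and 200 CPM at day 28 (-2.61 ± 0.11), while day 7 stood at 59.7 to 67.5 CPM. The summed level of the 26 genes was 160300 to 233400 CPM after 5-FU and 69550 to 85090 CPM at day 28. Since these genes held up to 20.9% of counts, other genes were also tested with scaling factors computed without haemoglobin, erythroid and granule genes. The count of large differences was then 975 higher and 1370 lower, beside 971 and 1374.

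Primary granule genes, switched on earlier in promyelocytes, moved less. Of 15 tested, 9 rose, 2 as large differences (Lyz2, 1.16, and Lyz1, 1.05, near-identical lysozyme genes), and 0 fell. The list, Lyz2 included, summed to 25580 to 34650 CPM after 5-FU and 16470 to 19730 CPM at day 28, without overlap. The protease genes Ctsg (0.81), Elane (0.62) and Prtn3 (0.57) rose. Mpo, myeloperoxidase, was at 4518, 6372, 8142 and 5015 CPM after 5-FU and 4118, 5323, 4425 and 4609 CPM at day 28, overlapping and not called (0.38 ± 0.17). In the list of granulocyte-monocyte priming, 17 of 25 genes rose and 2 fell. Among the factors, Gfi1, which favours the granulocytic fate, rose (0.98), Cebpa was not called (0.08), and Irf8, which favours the monocytic and dendritic fate, had 21.8, 23.8, 24.1 and 17.2 CPM after 5-FU against 108, 101, 109 and 100 CPM at day 28 (-2.27 ± 0.11). Day 7 stood at 49 to 76.4 CPM for Irf8, also above all 5-FU libraries.

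Monocyte and macrophage genes moved in both directions. Of 30 tested, 9 rose and 14 fell, 2 and 6 of them as large differences. Those that rose most were Ly6c2 (1.17), an antigen of classical monocytes, and Lyz2, at 13880, 15490, 14370 and 19440 CPM after 5-FU and 6776, 7594, 7464 and 6363 CPM at day 28. The list summed to 17800 to 24110 CPM after 5-FU and 9347 to 11420 CPM at day 28, without overlap. Lyz2 made up most of both sums. The large and lower ones were the complement chains C1qa (-1.55), C1qb (-1.48) and C1qc (-1.40), the sialic acid receptor Siglec1 (-1.70) and the receptors for dying cells Axl (-1.33) and Mertk (-1.12). C1qa stood at 3.17, 4.29, 4.44 and 4.06 CPM after 5-FU, against 13.2, 11.4, 9.71 and 12.5 CPM at day 28 and 4.44 to 5.80 CPM at day 7, so that day 7 reached the 5-FU range. With day 7 in place of day 28 the median of the list turned to 0.86, beside -0.24 here.

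Dendritic cell and MHC class II genes fell together. Of 19 dendritic cell genes tested, 12 fell, 8 as large differences, and 0 rose. Siglech, a receptor of plasmacytoid dendritic cells, had 5.87, 7.98, 8.96 and 5.94 CPM after 5-FU and 29.5, 35.2, 32 and 26.9 CPM at day 28 (-2.10 ± 0.15). Of 10 MHC class II genes, 8 fell, 5 as large differences, and H2-DMa rose (0.59). Ciita, the coactivator that class II genes require, had 1.92, 1.19, 1.87 and 2.10 CPM after 5-FU and 11.5, 13.3, 10.6 and 10.2 CPM at day 28 (-2.70 ± 0.19), without overlap. The antigen-presenting chains H2-Ab1 (-1.91), H2-Aa (-1.53) and H2-Eb1 (-2.10) and the invariant chain Cd74 (-1.48) fell below all 8 libraries without 5-FU. The summed level of the class II list was 987 to 1248 CPM after 5-FU, against 2548 to 2882 CPM at day 28 and 1659 to 1912 CPM at day 7.

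Mature lymphocyte genes were lower as well, although these cells should be absent from an HSC gate. Of 21 B cell genes, 18 fell, 10 as large differences, and 1 rose. Fcmr, the IgM Fc receptor, had 1.02, 1.15, 1.01 and 0.893 CPM after 5-FU and 14.5, 12.7, 15.8 and 13.9 CPM at day 28 (-3.79 ± 0.16). Ighd, the IgD heavy chain, fell by 2.80 on the log2 scale, whereas the light chain gene Igkc (-0.06) was not called. The list summed to 2410 to 3437 CPM after 5-FU and 2992 to 4290 CPM at day 28, which overlap. Of 27 T and NK cell genes, 21 fell, 12 as large differences (19 with offsets for GC content and length), and 2 rose. Cd4 had 1.68, 2.93, 2.03 and 1.34 CPM after 5-FU and 14.6, 16.7, 14.3 and 11.7 CPM at day 28 (-2.83 ± 0.22), and the T cell receptor chain Trac fell too (-1.32). Gzmb (0.75) and Nkg7 (0.54), genes of cytotoxic granules, were the 2 that rose. The list summed to 546 to 815 CPM after 5-FU and 565 to 683 CPM at day 28, which overlap. Against day 7, 10 of 26 T and NK cell genes were called lower and 5 higher (all genes: 5092 of 16177 lower, 5163 higher). No gene of these lists named here was at 0 in any library, and the part that lymphocyte RNA plays in other results was not tested.

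Eosinophil and basophil genes followed. Of 21 mast cell, basophil and eosinophil genes, 13 fell and 3 rose. Alox15, the 12/15-lipoxygenase of eosinophils and macrophages, had 13.4, 8.29, 13.9 and 13.8 CPM after 5-FU and 133, 178, 131 and 150 CPM at day 28 (-3.58 ± 0.17). The IL-5 receptor Il5ra (-2.31), the eotaxin receptor Ccr3 (-1.60) and the granule gene Ear1 (-1.28) were large and lower, Ear1 sharing 57.4% of its transcript with other genes. The mast cell protease Cpa3 was not called (-0.19).

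Megakaryocyte and platelet genes were higher in sum after 5-FU, at 1778 to 2079 CPM, against 1122 to 1513 CPM at day 28 and 1094 to 1288 CPM at day 7. Of 27 tested, 10 rose, 2 as large differences, and 2 fell, with a median of 0.37 (all genes: 22.9% higher, 6.08% large and higher). Against day 7, 18 of 27 were called higher, 14 as large differences, and 3 lower, with a median of 1.56. Selp, the platelet and endothelial adhesion protein P-selectin (chromosome 1, 164115264 to 164150026 in mm10), had 32.2, 31.2, 22.8 and 31 CPM after 5-FU, against 6.62, 4.38, 6.41 and 6.42 CPM at day 28 and 5.25 to 7.46 CPM at day 7 (2.30 ± 0.16). Pf4, a platelet granule chemokine, had 310, 342, 285 and 273 CPM after 5-FU against 131, 62.9, 113 and 114 CPM at day 28 (1.52 ± 0.18). Vwf, which marks platelet-biased HSC, had 42.9, 46.7, 36.2 and 46.2 CPM after 5-FU and 33.2, 19.8, 28 and 25.8 CPM at day 28 (0.69 ± 0.14). These 3 genes separated the groups. The platelet integrin Itga2b (-0.06) and the glycoprotein Gp6 (-0.62) were not called, and the thrombin receptor F2r (-1.38) fell.

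**Figure D3:**
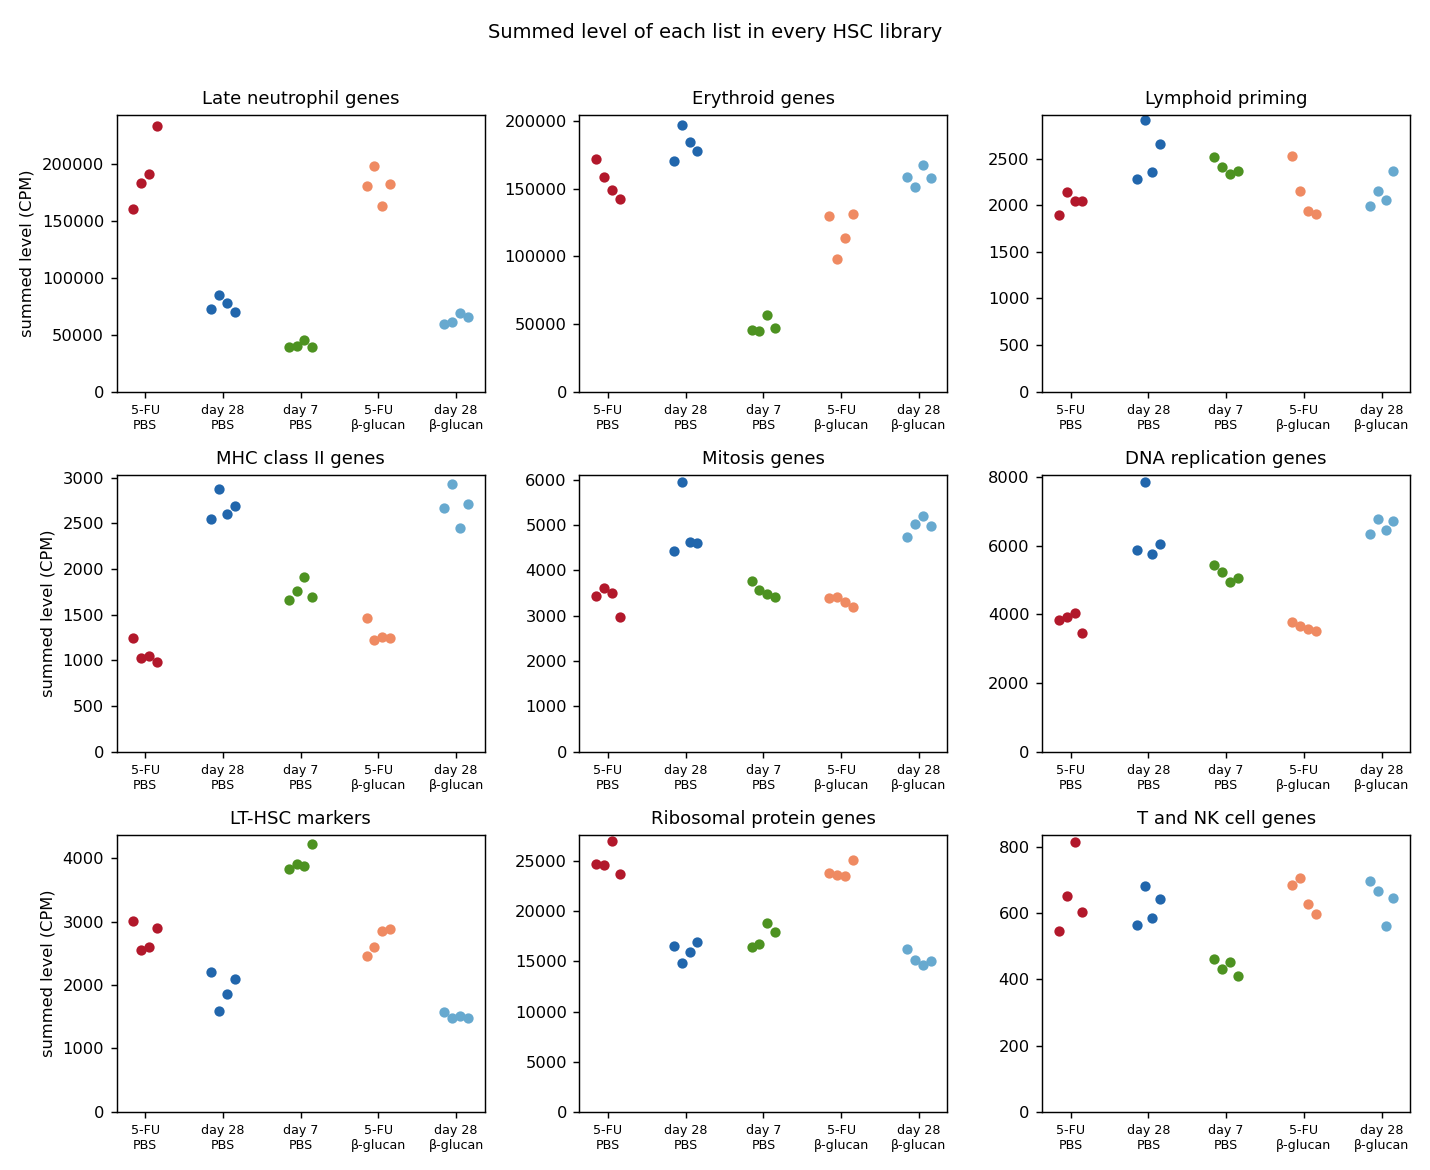
Summed level of gene lists, in CPM, in every HSC library of 5 groups, with 5-FU left of day 28 and day 7 in PBS mice and left of day 28 in β-glucan mice. Points are libraries. Late neutrophil genes sum to 160300 to 233400 CPM after 5-FU in PBS mice against 69550 to 85090 CPM at day 28, and MHC class II genes to 987 to 1248 against 2548 to 2882 CPM.

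HSC markers were modestly higher after 5-FU than at day 28 and lower than at day 7. Of 33 tested, 15 rose, 2 as large differences, and 3 fell (all genes: 22.9% higher, 6.08% large and higher). Of the large and higher ones, 0 lay beyond all 8 libraries without 5-FU. The median was 0.45 against day 28 and -0.67 against day 7. The summed level was 2554 to 3015 CPM after 5-FU, 1587 to 2213 CPM at day 28 and 3837 to 4231 CPM at day 7, without overlap. Mecom, a factor that HSC need for self-renewal, stood at 23.1, 14.6, 15.3 and 17.1 CPM after 5-FU and 12.2, 6.71, 9.65 and 8.90 CPM at day 28 (0.91 ± 0.19), and at 29.6 to 33.3 CPM at day 7, so its direction turned with the group it was set against (-0.72 against day 7). Hlf, another HSC factor, was not called (0.45 ± 0.19) and was lower than at day 7 (-1.34). The angiopoietin receptor Tek, which keeps HSC at rest in the niche, had 24.1, 21.9, 17.2 and 17.3 CPM after 5-FU against 12.1, 7.56, 7.46 and 10.9 CPM at day 28 (1.08 ± 0.18), while day 7 overlapped at 13.5 to 22.1 CPM. Ndn (-2.08), a growth suppressor of resting HSC, was large and lower.

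The genes of the sort gate were measured here as RNA, which is not surface protein and can come from other cells in these libraries. Of 8 tested, 4 rose and 2 fell, with Flt3 (-1.79) the 1 large difference. Ly6a, which encodes Sca-1, had 40.9, 35.7, 45.7 and 43.3 CPM after 5-FU and 36.4, 25.1, 33.2 and 33.4 CPM at day 28 (0.37 ± 0.12). Kit, the stem cell factor receptor, had 264, 238, 253 and 249 CPM after 5-FU against 238, 184, 194 and 231 CPM at day 28 (0.25 ± 0.09). Both calls were lost in some alternatives, and both genes were lower than at day 7 (Ly6a, -0.90 and Kit, -0.85, against day 7). Slamf1, which encodes CD150 of long-term HSC, had 9.71, 10.9, 9.04 and 11.6 CPM after 5-FU against 6.09, 3.29, 4.78 and 7.16 CPM at day 28 (0.95 ± 0.21), and it exceeded all 8 libraries without 5-FU. Cd48, absent from long-term HSC protein gates, had 117, 110, 117 and 110 CPM after 5-FU and 86, 99.9, 100 and 87.1 CPM at day 28 (0.28 ± 0.08), a call also lost in some alternatives. Cd34 fell (-0.83 ± 0.11), at 53.3 to 68.4 CPM after 5-FU, against 88.2 to 118 CPM at day 28 and 336 to 378 CPM at day 7. Procr, the endothelial protein C receptor of HSC, overlapped and was not called (0.50 ± 0.25), with a median of the 8 tested gate genes of 0.26 against day 28 and -1.20 against day 7.

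Among 30 stem cell transcription factors, 13 rose, 2 as large differences, and 4 fell (all genes: 22.9% higher, 6.08% large and higher). Of the large ones, 0 lay beyond all 8 libraries without 5-FU. Hoxa5 (1.65) and Sox4 (1.04) were the large ones, Hoxa5 at no more than 0.665 CPM after 5-FU. Gfi1 (0.98), Mycn (0.98), Erg (0.71) and Runx1 (0.46) rose, while Gfi1b (-0.86) and Tal1 (-0.37), which act in the erythroid and megakaryocytic lineages, fell. The median was 0.28 against day 28 and -0.36 against day 7.

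Cell division genes were lower after 5-FU than at day 28. Of 47 DNA replication genes, 40 fell, 8 as large differences, and 0 rose (median -0.61). Mcm6, a subunit of the replicative helicase (chromosome 1, 128331590 to 128359664 in mm10), had 45.8, 43.1, 45 and 41.2 CPM after 5-FU, against 348, 352, 302 and 276 CPM at day 28 and 220 to 305 CPM at day 7 (-2.87 ± 0.10). Mcm2 (-1.39), Pold1 (-1.49), Orc1 (-1.15) and Cdc6 (-1.05) also fell over 2-fold, whereas the other helicase subunits Mcm3 (-0.66), Mcm4 (-0.71), Mcm5 (-0.58) and Mcm7 (-0.71) fell less. Of 40 mitosis genes, 33 fell, 4 as large differences (Ccnb2, -1.42, Ncapd2, -1.20, Plk1, -1.04, and Kif4, -1.04), and Cks2 rose (0.76). Mki67, a marker of cycling cells, stood at 79.3, 90.2, 56.3 and 47.5 CPM after 5-FU and 119, 120, 130 and 126 CPM at day 28 (-0.85 ± 0.16). The 2 lists behaved differently against day 7. There 32 replication genes were called lower and 4 higher (median -0.40), but 12 mitosis genes were called lower and 13 higher (median -0.02). Over all genes, 5092 of 16177 were called lower against day 7 and 5163 higher.

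Regulators of cycle entry moved in both directions. Of 20 CDK inhibitors, D cyclins and quiescence genes, 9 fell, 3 as large differences, and 3 rose (all genes: 25.8% lower, 22.9% higher). The median was -0.20. Against day 7, 8 were called lower and 6 higher (median -0.098). The D cyclins Ccnd3 (-1.24), Ccnd1 (-0.85) and Ccnd2 (-0.49) fell, with Cdk4 (-0.51). Of the inhibitors, Cdkn1c (0.66), known to hold HSC at rest, and Cdkn1b (0.32) rose, while Cdkn1a, the p53 target p21, had 8.85, 7.77, 6.12 and 7.81 CPM after 5-FU and 6.03, 5.84, 6.80 and 5.11 CPM at day 28, overlapping and not called (0.36 ± 0.16). Replication-dependent histone genes split, 4 of 13 rising and 7 falling. The linker histones Hist1h1b (1.46) and Hist1h1a (1.798) rose, and Hist1h1c (-1.67), Hist1h1e (-1.17) and the core histone Hist2h2ac (-2.31) fell. Against day 7 the last 2 were not lower (Hist1h1e 0.05, Hist2h2ac 1.07), and the list's median was 1.27 there and -0.67 here. Among its genes that share at most 10% of their sequence with another gene the median was 0.42.

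The enzymes that 5-FU meets in the cell are those of pyrimidine and folate metabolism. Of 36 tested, 23 fell, 7 as large differences, and 5 rose, 2 as large differences. Tyms, thymidylate synthase, the target of the drug, had 149, 140, 144 and 123 CPM after 5-FU and 149, 222, 156 and 178 CPM at day 28 (-0.34 ± 0.12), a call lost in some alternatives, with no decrease against day 7 (0.05). Dut, which removes dUTP, had 10.8, 11.1, 9.43 and 8.22 CPM after 5-FU and 76.9, 71.1, 70.5 and 56.4 CPM at day 28 (-2.80 ± 0.13), and 47.4 to 66.2 CPM at day 7. Ung, the glycosylase that cuts uracil from DNA, had 1.49, 2.41, 1.21 and 1.38 CPM after 5-FU and 9.98, 11.9, 7.80 and 5.47 CPM at day 28 (-2.43 ± 0.28). Upp1, the uridine phosphorylase that can convert 5-FU to its riboside, rose, with 24.7, 23.3, 24.6 and 27.6 CPM after 5-FU, against 7.76, 6.74, 7.94 and 7.03 CPM at day 28 and 8.28 to 13.5 CPM at day 7 (1.76 ± 0.11). All 3 separated the groups. Cad (-1.49) and Ctps (-1.86) of pyrimidine synthesis, Fpgs (-1.69) and Mthfd1 (-1.38) of folate metabolism and the nucleoside transporter Slc29a1 (-1.15) fell as well, and Nme2 rose (1.17), with 54.5% of its transcript shared with other genes. The degrading enzyme Dpyd and the phosphorylase Tymp did not pass the filter on low counts.

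Targets of p53 did not rise as a list 14 days after the drug. Of 33 tested, 16 fell, 4 as large differences, and 7 rose, 1 as a large difference (all genes: 25.8% lower, 22.9% higher). That was Trp53cor1, a non-coding RNA induced by p53, with 1.72, 1.64, 1.29 and 0.938 CPM after 5-FU and 0.75, 0.398, 0.541 and 0.367 CPM at day 28 (1.43 ± 0.31), but 3.08 to 3.53 CPM at day 7. Sesn1, a stress-induced sestrin, had 17, 17.9, 16 and 14.9 CPM after 5-FU against 53.5, 64.9, 50.3 and 53.3 CPM at day 28 (-1.75 ± 0.11), and day 7 was higher still at 99.1 to 103 CPM. The p53 ligase Mdm2 (-0.90), the death effectors Bax (-0.54) and Pmaip1 (-0.75) and Aen (-0.81) fell, while Fas (0.58) and Xpc (0.60) rose. Of 40 DNA repair genes, 22 fell and 0 rose. Beside Ung, the large ones were Parp1 (-1.17) and Xrcc1 (-1.001), which act in single-strand break repair.

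Ribosomal protein genes and the genes that build ribosomes moved apart. Of 52 ribosomal protein genes, 47 rose, 18 as large differences, and 2 fell (median 0.78). Rps23 had 39.7, 40.4, 48.5 and 38.8 CPM after 5-FU and 7.78, 6.10, 8.09 and 7.37 CPM at day 28 (2.51 ± 0.12), and Rps6 rose by 2.12. Most of these genes have near-identical copies whose reads may be exchanged. Among the 10 that share at most 10% of their transcript with another gene, 10 rose, 4 as large differences, with a median of 0.98. Of 30 ribosome biogenesis genes, 23 fell, 3 as large differences, and 0 rose. Tcof1 (-1.58), Ubtf (-1.48) and Rrp12 (-1.14), which act in ribosomal RNA transcription and processing, were large and lower, and Myc, which drives this programme, had 77.5, 79.1, 86 and 68.7 CPM after 5-FU and 159, 130, 133 and 157 CPM at day 28 (-0.89 ± 0.10). Of the 13 protein-coding genes of the mitochondrial genome, 12 rose (median 0.58), but only 1 was called higher and 3 lower once GC content and length were taken into account.

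Chaperones of the endoplasmic reticulum and heat shock genes fell. Of 25 genes of the unfolded protein response, 17 fell, 7 as large differences, and Edem1 rose (0.60). Pdia3, a disulfide isomerase, had 49.4, 58.6, 55.8 and 46.4 CPM after 5-FU against 358, 426, 307 and 250 CPM at day 28 (-2.67 ± 0.15), and Sdf2l1 (-2.21) and Creld2 (-2.31) fell similarly. Day 7 reached 231 to 312 CPM for Pdia3, but only 17.2 to 25.4 CPM for Sdf2l1, beside 12.1, 13.4, 15.5 and 12.3 CPM after 5-FU. The list's median was 0.25 against day 7 and -0.52 against day 28. Of 20 heat shock genes, 13 fell and 0 rose, led by the mitochondrial chaperone Hspa9 (-2.33) and the heat shock factor Hsf1 (-2.17). Against day 7, 8 of the 20 were called lower and 7 higher (all genes: 5092 of 16177 lower, 5163 higher). The median was -0.054 there, beside -0.62 against day 28.

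Among cytokine signalling genes, 12 of 29 fell and 3 rose. The kinase Jak3, used by receptors with the common γ chain, had 0.548, 0.767, 1.17 and 0.759 CPM after 5-FU and 10.9, 4.08, 7.18 and 10.5 CPM at day 28 (-3.33 ± 0.33). The kinases Jak1 (-1.17) and Pim2 (-2.69) fell too. The receptor of oncostatin M, Osmr, was large and higher (2.04 ± 0.49) at 0.625 to 1.92 CPM, against at most 0.569 CPM at day 28. The IL-1 receptor Il1r1 was not called (-0.20 ± 0.23). The β-glucan receptor Clec7a had 44.1, 47.7, 41.3 and 72.6 CPM after 5-FU and 31.8, 48, 33.6 and 33.4 CPM at day 28, overlapping, with a call lost in some alternatives (0.49 ± 0.18).

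Genes of cells other than blood stood out among the largest increases. Alb, serum albumin (chromosome 5, 90460897 to 90476602 in mm10), had 297, 427, 225 and 181 counts after 5-FU and 2, 0, 0 and 0 counts at day 28, a ratio of 826 with a 95% counting interval of 228 to 6830. Mup7, a major urinary protein made by liver, had 865 counts after 5-FU and 2 at day 28 over the 4 libraries each, but shares 90.2% of its transcript with other genes. A list of 27 liver genes, drawn up after these values were seen, summed to 38.3 to 68.5 CPM on unscaled totals after 5-FU, 4.47 to 6.22 CPM at day 28 and 32.4 to 37.3 CPM at day 7, so that day 7 nearly reached the 5-FU range. Most of the day 7 sum was the liver factor Hnf4a, which went the other way, with 27 to 70 counts after 5-FU, 124 to 176 at day 28 and 610 to 748 at day 7. The 26 genes left once Hnf4a was taken out, also a choice made with the values known, had counts for all 26 in every 5-FU library, 905 to 2055 counts in sum, or 36.1 to 67.6 CPM. At day 28 these had counts for 7 to 13 of them and 0.84 to 1.27 CPM, at day 7 for 7 to 9 and 2.22 to 3.22 CPM. A list of 8 fat genes, also drawn up afterwards, summed to 33.4 to 78.4 CPM after 5-FU, 11.1 to 15.3 at day 28 and 32.2 to 40.3 at day 7. β-glucan mice after 5-FU had 36.2 to 49.9 CPM of the 26 liver genes, and how these transcripts came into the libraries was not tested.

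Stromal and endothelial genes, expressed by the marrow niche, were partly higher. Of 27 tested, 11 rose, 7 as large differences, and 4 fell. Mgp, a matrix protein, had 13.9, 15.9, 29.1 and 10.4 CPM after 5-FU and 3.25, 2.89, 4.38 and 3.18 CPM at day 28 (2.34 ± 0.28). Lepr (1.18), which marks niche stroma, its product stem cell factor Kitl (1.15), the proteoglycan Dcn (1.73) and the adipocyte hormone Adipoq (1.53) were large and higher. Eng (-2.48) and Alpl (-1.74) were large and lower, and Cxcl12, the chemokine that retains HSC, was not called (-0.13). The summed level overlapped, at 390 to 701 CPM after 5-FU and 408 to 552 CPM at day 28.

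Several of the largest differences belonged to no single programme. Psmd5, a proteasome assembly chaperone, had 8.22, 11.1, 14.5 and 9.38 CPM after 5-FU against 140, 181, 126 and 163 CPM at day 28 (-3.82 ± 0.18). The class I antigen gene H2-D1 had 174, 198, 209 and 228 CPM after 5-FU and 2217, 2572, 1867 and 2206 CPM at day 28 (-3.45 ± 0.13), whereas H2-K1 fell by only 0.37 and B2m, the light chain of class I, rose (0.85). The surface glycoprotein Bsg (-3.49), the sodium pump subunit Atp1b2 (-3.76) and the peptidase Thop1 (-3.44) fell as far. Day 7 lay above the 5-FU libraries in all 5 genes, at 107 to 117 CPM for Psmd5, 1775 to 2107 CPM for H2-D1, 180 to 248 CPM for Bsg, 10.6 to 26.3 CPM for Atp1b2 and 6.97 to 10.2 CPM for Thop1. For Psmd5 and Bsg it lay below every day 28 library, and for H2-D1, Atp1b2 and Thop1 it overlapped day 28. In β-glucan mice after 5-FU, replicate 4 stood apart, with 39.3 CPM of Psmd5 against 9.18 to 12.5 CPM and 640 CPM of H2-D1 against 206 to 238 CPM in the other libraries. The smallest p belonged to Aplp2, an amyloid precursor-like protein, with 19, 20.3, 20.2 and 17.9 CPM after 5-FU and 156, 151, 139 and 131 CPM at day 28 (-2.90 ± 0.09, adjusted p = 4.27e-09 by edgeR's quasi-likelihood test). Hmgn1 (-2.88), a nucleosome binding protein, Fam210b (-3.11), a mitochondrial protein of red cell precursors, and Tmem214 (-2.35) fell with similarly small errors. On the higher side stood Stfa1, a cystatin of myeloid cells, with 61.2, 69.3, 51.4 and 71.3 CPM after 5-FU and 6.23, 8.04, 6.89 and 6.67 CPM at day 28 (3.19 ± 0.13), mt-Rnr1 (2.69), Myl6 (2.26) and Ppia (2.28). Stfa1 shares 26.9% and Ppia 20.8% of the transcript with other genes.

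The differences moved with the make-up of genes. Over 8 bins of equal size by GC content, the share of genes that were large and lower ran from 2.77% in the lowest bin to 19.8% in the highest, and the share large and higher from 9.21% to 3.36%. By exonic length, 14.6% of the shortest bin and 2.45% of the longest were large and higher. With offsets for GC content and length in the same test, 864 large differences were higher and 1270 lower. The counts of the lymphoid list were then 17 lower, 12 of them large, those of the erythroid list 24 and 22, and those of the late neutrophil list 19 higher, 14 of them large. The part of composition in single genes was not tested further.

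**Figure D4:**
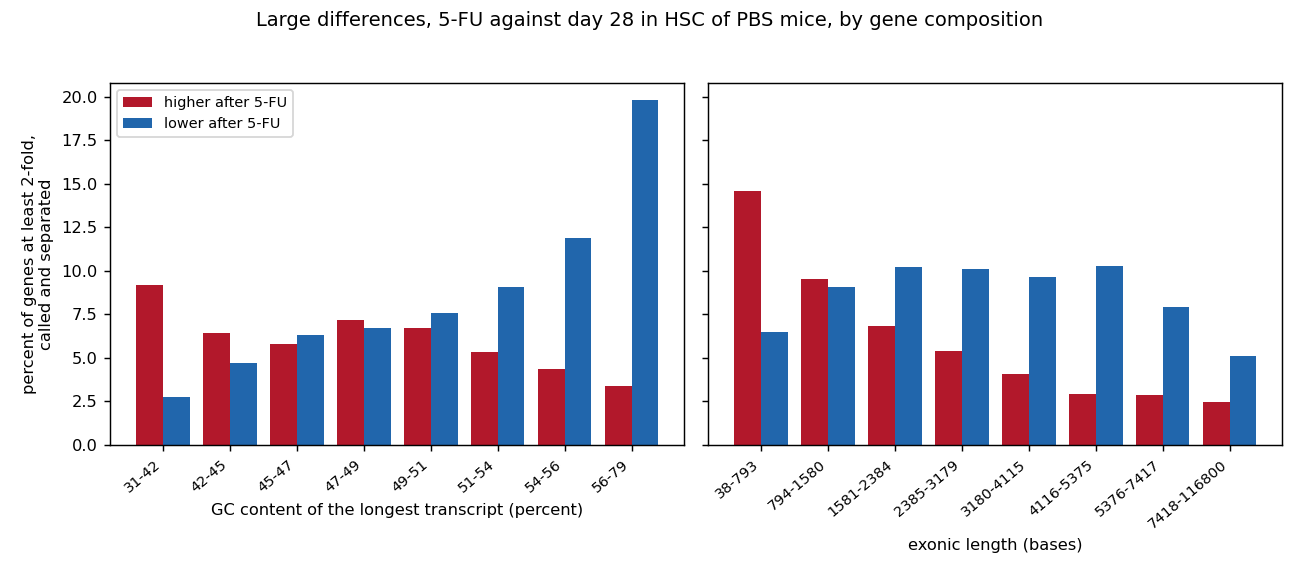
Share of genes that were called, at least 2-fold different and separated between 5-FU and day 28 libraries of PBS mice, by GC content and by exonic length. Bars are percent of the genes in each of 8 bins, red for higher and blue for lower after 5-FU. The share lower after 5-FU runs from 2.77 to 19.8% across GC bins, and the share higher from 14.6 to 2.45% across length bins.

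HSC of β-glucan mice gave the same contrast in other libraries of the same tables, with the same confounding. There 9605 of 16145 genes (59.5%) were called, 1240 as large and higher (7.68%) and 1684 as large and lower (10.4%). Of the large differences, 676 were higher in both arms, 69.6% of those in PBS mice and 54.5% of those in β-glucan mice. Those lower in both numbered 1105, 80.4% and 65.6%. The lymphoid median was -1.06 in PBS mice and -0.68 in β-glucan mice, the erythroid median -1.16 and -1.44, the late neutrophil median 0.96 and 1.18 and that of HSC markers 0.45 and 0.64, in the same order. Some other lists repeated less. The T and NK cell median was -0.95 and -0.29, with 21 and 10 genes called lower, 12 and 3 as large differences. Over all genes, 4126 of 15973 were called lower in PBS mice and 4937 of 16145 in β-glucan mice. Medians were -0.67 and -0.26 for mast cell, basophil and eosinophil genes, 0.37 and 0.048 for megakaryocyte and platelet genes, and 0.54 and 0.16 for primary granule genes. That of monocyte and macrophage genes turned, at -0.24 and 0.16. In PBS mice and β-glucan mice, the log2 fold changes were -4.47 and -5.26 for Igll1, -3.34 and -4.41 for Klf1, 1.65 and 2.002 for Camp, and -2.87 and -2.94 for Mcm6.

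A direct test of the difference between arms, in which a shift common to both arms of a table cancels, called 18 of 16985 genes (0.106%) and 1920 at an unadjusted p under 0.05. The count was not stable, at 6 to 49 when each library was left out in turn, 49 without β-glucan day 28 replicate 3 and 38 without PBS day 28 replicate 2, and 151 with DESeq2. T and NK cell genes were among the called ones. Il2rb, the β chain of the IL-2 receptor, fell further in PBS mice (-1.97) than in β-glucan mice (-0.54), a difference of -1.44 ± 0.18 (edgeR's quasi-likelihood contrast, adjusted p = 0.0022). Trac (-1.32 and -0.37), Alox15 (-3.58 and -2.23) and H2-Eb1 (-2.10 and -1.48) also fell further in PBS mice. Fos, an immediate early factor, rose in PBS mice, at 29.6, 22.2, 15.6 and 23.2 CPM after 5-FU and 6.48, 8.70, 8.03 and 5.26 CPM at day 28 (1.67), but was not called in β-glucan mice (0.14), a difference of 1.52 ± 0.25. At day 7 Fos stood at 253 to 555 CPM, far above the 5-FU libraries (-3.78 against day 7). Lmna, nuclear lamin A, fell less in PBS mice (-2.21) than in β-glucan mice (-3.28). The chemokine Cxcl2 (2.14 and -0.60), the lipase Lipg (0.36 and -1.30) and the glucocorticoid-induced gene Tsc22d3 (0.20 and 0.96) were also called.

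**Figure D5:**
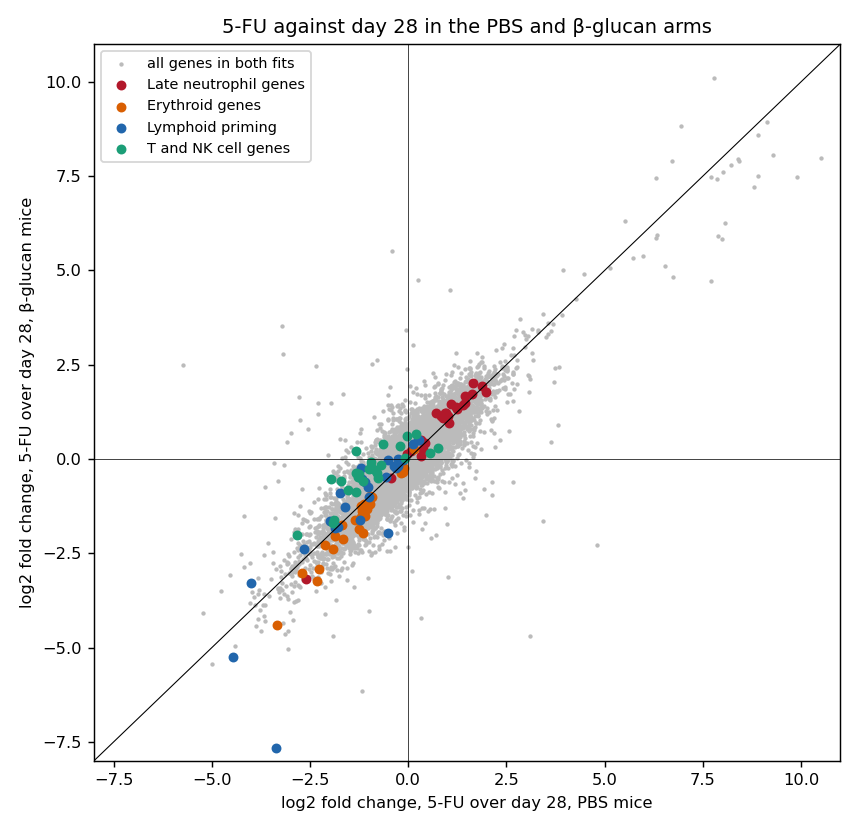
Log2 fold change, 5-FU over day 28, in PBS mice (x axis) and β-glucan mice (y axis) for the 15690 genes in both fits. Grey points are all genes and coloured points are members of lists, with the diagonal as equal change. Most lymphoid and erythroid genes lie at negative values in both arms and most late neutrophil genes at positive values, with Lrg1 (-2.61 in PBS mice) an exception.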

How the data were processed

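RNA of sorted HSC was purified with RNeasy Plus Micro columns and made into SMARTer Ultra libraries, which do not mark strand, per the labels' protocols. The values are raw counts per gene that the authors deposited in 3 tables. featureCounts, bcl2fastq 1.8.4 and the mm10 build are named per the submitters' processing notes (aligner not given in the sources used here). Reads of overlapping, antisense or near-identical genes can be exchanged. The 5-FU table listed 15.02 exon intervals per gene, against 5.772 at day 28, with equal gene lengths in 100% of genes and the same interval starts in 65.8%.

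Counts of the 8 libraries were filtered (filterByExpr, minimum count 10), scaled by TMM and tested with edgeR 4.0.16 in R 4.3.3, with Benjamini-Hochberg adjustment at 0.05. Of 45706 gene IDs, 45143 had a symbol (GENCODE M21). IDs without a symbol held 0.0579 to 0.0719% of counts. Counting intervals are 95% and cover counting error only. Named genes were up to 12 of the largest differences in each direction (mean log2 CPM of at least 2), the 8 next by p, up to 5 per list with at least 25% of tested members large in 1 direction, and genes of prior interest; other genes named are list members chosen after their values were seen. The members and lists were chosen with earlier results of these data known. Alternatives were DESeq2 1.42.0, limma 3.58.1 voom, other scalings, filters and fits, offsets for GC content and length, day 7 as the comparison and leaving out each library. The test was checked on simulated data. Replicates differed from each other beyond counting noise (chi-square per gene 10.9 to 45.5 over 12 pairs). Some genes are not reported here.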

Additional observations from a re-analysis of the deposited data

Results flagged for a closer look

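Within groups of 4 libraries, named genes and library measures such as total counts were checked for a library far from the rest. Such a highest or lowest library was found in 10 of 226 groups, all 10 of them for genes, where chance gives about 1 in 20. After 5-FU, replicate 3 was highest for Rps23 (48.51 CPM, others 38.75 to 40.36) and lowest for Selp (22.79 CPM, others 31.03 to 32.21). Replicate 2 was lowest for Alox15 (8.295 CPM, others 13.43 to 13.91) and highest for Slc11a2 (31.89 CPM, others 24.9 to 25.27). Replicate 1 was highest for Hlf (56.40 CPM, others 36.81 to 39.12). At day 28, replicate 1 had 0.04549 CPM of Alb and 0.04549 CPM of Mup7, with the other libraries at 0. Replicate 2 was lowest for Selp (4.377 CPM, others 6.407 to 6.618) and highest for Clec7a (47.96 CPM, others 31.82 to 33.57), and replicate 3 was lowest for Hist1h1c (25 CPM, others 30.4 to 31.5).

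In edgeR's quasi-likelihood contrast, the change after 5-FU differed between PBS and β-glucan mice for 18 genes. Of these, 4 were among the genes named by the rules stated above. The differences, PBS minus β-glucan, were -1.365 for Alox15, -1.436 for Il2rb, -0.9599 for Trac and -0.6175 for H2-Eb1 on the log2 scale.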

How the results depend on the processing

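Counts of calls stayed within 1.5 times of the main values except in the following cases. Among genes of at least 5 CPM in 4 libraries, 340 large differences were higher and 783 lower. With day 7 in place of day 28, 2571 were large and higher. Of the 971 large and higher against day 28, 628 also lay beyond all 8 libraries without 5-FU. Offsets for GC content and length and the genes of at most 10% shared sequence were chosen after seeing the data, as was the comparison with all 8. Leaving out each library in turn gave 6849 to 7737 calls, 1021 to 1124 large and higher and 1370 to 1474 large and lower in PBS mice, and 8848 to 9440 calls in β-glucan mice. The 18 genes of the difference between arms were the least stable count. It was 59 without a filter on low counts, 151 with DESeq2, 118 with limma voom, 41 in 1 fit of all 8 groups, 8 with the offsets and 6 to 49 leaving out each library, with 38 without PBS day 28 replicate 2 and 49 without β-glucan day 28 replicate 3. The cause was not tested.

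Directions turned mainly against day 7, where Cr2 was 0.17, Hist2h2ac 1.07, Hist1h1e 0.052, Ly6a -0.90, Kit -0.85, Procr -1.71, Tyms 0.050, Hlf -1.34, Mecom -0.72, Hbb-bs 0.55 and Ddx3y -0.13. List medians there were -0.67 for HSC markers, -1.20 for sort gate genes, -0.36 for stem cell factors, 0.86 for monocyte and macrophage genes, 1.27 for histone genes, -0.84 for immediate early genes, 0.25 for unfolded protein response genes and 0.13 for oxidative stress genes. Hbb-bs was 0.029 with upper quartile scaling. Ddx3y, not called, was -0.031 without a filter, -0.24 with the offsets and between -0.013 and 0.070 leaving out each library, negative without PBS 5-FU replicate 4 (-0.013) and without PBS day 28 replicate 4 (-0.0091). The histone median was 0.39 at 5 CPM and 0.42 at 10% shared sequence, and that of sex-linked genes -0.037 with the offsets.

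Same-numbered libraries did not deviate together (correlations -0.162 to 0.109, 1 of 4 over 0.1), so replicate numbers were not taken as pairs. With the replicate block 7276 genes were called, 961 large and higher and 1367 large and lower, 9298 in β-glucan mice and 12 for the difference between arms. Depth limits low genes: Vpreb2 and Hoxa5 stood under 1 CPM after 5-FU.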

Other observations

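Interferon and inflammatory genes had list medians near 0 against day 28 in PBS mice, but not in the other comparisons. Over all genes, 22.9% were called higher and 25.8% lower against day 28 in PBS mice. Against day 7, 5163 of 16177 genes were called higher and 5092 lower. In β-glucan mice, 4668 of 16145 genes were called higher and 4937 lower. Of 35 type I interferon genes, 3 rose and 10 fell (median 0.01), with Rsad2 (-1.01), an antiviral enzyme, the large one, and Isg15 (-0.77) and Irf7 (-0.56) lower too. Against day 7, 4 were called higher and 16 lower (median -0.28). Of 29 interferon gamma genes, 8 rose and 6 fell (median 0.03), with 4 called higher and 18 lower against day 7 (median -0.53), and 16 higher and 4 lower in β-glucan mice (median 0.47). Among receptors and adaptors for IL-1, TLR ligands and β-glucan, 9 of 30 rose and 4 fell, with Il1b (0.73) and Ly96 (1.02), a co-receptor for bacterial lipid, among those that rose (median 0.04). Against day 7, 18 of 29 were called higher and 4 lower (median 0.58), and in β-glucan mice 17 of 30 were higher and 5 lower (median 0.31).

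Immediate early genes, which respond to cell handling as well as to stimuli, split, with 10 of 24 rising and 6 falling (median 0.23). Over all genes, 22.9% were called higher and 25.8% lower. Egr1 had 7.87, 5.37, 3.78 and 4.33 CPM after 5-FU and 2.05, 1.17, 2.14 and 1.71 CPM at day 28 (1.59), but 43.8 to 71.7 CPM at day 7 (-3.31 against day 7). Jun (1.84) rose, and Maff (-1.46) and Ppp1r15a (-1.56) fell. The median of the list was -0.84 against day 7.

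The remaining lists are given beside shares of 22.9% higher, 25.8% lower and 14.7% large over all genes. Of 14 plasma cell genes 4 fell, 3 as large differences, and 0 rose. Of 15 BCL2 family genes 5 fell and 1 rose (Mcl1, 0.60), with 2 large and lower. Of 21 NF-kB genes 6 fell and 5 rose, 2 as large differences in each direction. Of 24 cholesterol synthesis genes 9 rose, 1 as a large difference, and 2 fell. Of 23 glycolysis genes 11 rose and 4 fell, 2 of these as large differences. Of 34 oxidative phosphorylation genes 18 rose, 2 as large differences, and 10 fell, 4 as large differences. Of 25 oxidative stress genes 8 rose, 2 as large differences, and 9 fell, 1 as a large difference. Of 15 glucocorticoid-induced genes 6 rose, 1 as a large difference, and 3 fell, 2 as large differences. Of 11 DNA methylation genes 1 rose and 5 fell, and of 4 sex-linked genes 2 rose and 0 fell, with 0 large differences in both lists.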
